A study of Mus musculus with 9 samples.

Results

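The 9 genes described here encode the core of the Hedgehog pathway: the ligand Shh, its receptor Ptch1, the signal transducer Smo, the co-receptor Gas1, the ligand-binding inhibitor Hhip, the cytoplasmic regulator Sufu and the transcription factors Gli1, Gli2 and Gli3. They were chosen by name for their roles and by no rule on their values, though earlier results of these data were known. They are 9 of 51912 entries in the deposited table. All 9 were among the 16993 genes that passed a minimum mean of 5 normalized counts. Nkx2.9 is a homeobox transcription factor gene of the ventral neural tube, and RNA was sequenced from E14.5 midbrains of C57Bl/6 mice to compare embryos with and without it. The libraries carried the genotype Nkx2.9+/+ (wild type), Nkx2.9LacZ/+ (heterozygous) or Nkx2.9LacZ/LacZ (homozygous for an allele in which LacZ takes the place of the first exon), with 3 libraries each, and every library pooled a pair of midbrains. The allele was carried by the whole embryo and not only by the midbrain, and the labels give no sex.

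In the developing midbrain Shh is made in the floor plate, at the ventral midline, and spreads dorsally. Ptch1 holds Smo inactive until Shh binds, and active Smo releases the Gli proteins from Sufu and from processing into repressors. Gli1 and Gli2 act mainly as activators and Gli3 mainly as a repressor, and Gli1, Ptch1 and Hhip are themselves induced by the signal, which makes their transcripts the usual readout of pathway activity.

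Values are normalized counts, the reads on a gene divided by 1 size factor per library. The libraries held 1692963 to 5942192 reads on genes (median 4921748), and 2 libraries lay below 3000000, column 7 (Nkx2.9+/+) and column 4 (Nkx2.9LacZ/+). Libraries are named by their column, 1 to 3 for Nkx2.9LacZ/LacZ, 4 to 6 for Nkx2.9LacZ/+ and 7 to 9 for Nkx2.9+/+. Nkx2-9 itself had 28 reads in all, with 4, 6 and 3 in the libraries labelled Nkx2.9LacZ/LacZ, 0, 7 and 4 in Nkx2.9LacZ/+ and 0, 2 and 2 in Nkx2.9+/+, so it was not lower in the libraries labelled homozygous. These counts do not separate the replaced exon from the rest of the gene, so they did not check which columns are homozygous. Which of these columns are homozygous and which wild type is in doubt, and every direction below is that of the column labels and would be the opposite if the labels were exchanged. Xist lay between 4607 and 5182 normalized counts in the libraries labelled homozygous and between 47.1 and 4342 in wild type, while 4 Y-linked genes summed to at most 2.26 in the former and reached 1075 in the latter. Sex and the homozygous genotype therefore cannot be told apart, and only 1 wild-type and 1 heterozygous library had a Y-linked sum of at most 3.26, too few for values within a sex. In bulk tissue, fewer cells of a type and less RNA per cell cannot be told apart either.

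The libraries were examined for markers of the midbrain and of the floor plate. Presence of such markers in bulk tissue does not show which cells made Shh. All 7 floor plate markers, Foxa2, Corin and Lmx1a among them, were above the minimum count. Their summed level was 1359 to 1441 normalized counts in Nkx2.9LacZ/LacZ, 1253 to 1962 in Nkx2.9LacZ/+ and 1326 to 1567 in Nkx2.9+/+, and 0 of the 7 had an unadjusted p under 0.05 in limma in any comparison. The largest parts of that sum were Ntn1 (mean 733 over the 9 libraries) and Spon1 (447). Foxa2 (90.2), Lmx1a (98.5) and Corin (22.5) added little to it. All 6 midbrain markers were also present. Of 7 markers of forebrain and other rostral tissue, 5 also passed the minimum count, and the 7 summed to 487 to 583 normalized counts in Nkx2.9LacZ/LacZ, 453 to 630 in Nkx2.9LacZ/+ and 483 to 564 in Nkx2.9+/+, so the libraries were not free of such transcripts.

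Sequence before the transcription start is shown for 3 of the genes because the windows differ in CpG content, which the choice of genes did not use. RefSeq windows on GRCm38.p6, from 250 bases before to 50 bases after the start, were found for 7 of the 9 genes; Shh and Gli1 have no entry. The 100 bases before the start are given 5′ to 3′ on the strand of the gene, with each CpG in capitals, for the genes with the most CpGs (Ptch1, chr13:63565736-63565835, minus strand), an intermediate number (Hhip, chr8:80058009-80058108, minus strand) and the fewest (Sufu, chr19:46396796-46396895, plus strand).
Ptch1: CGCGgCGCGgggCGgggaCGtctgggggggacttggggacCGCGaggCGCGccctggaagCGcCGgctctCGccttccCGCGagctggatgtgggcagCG
Hhip: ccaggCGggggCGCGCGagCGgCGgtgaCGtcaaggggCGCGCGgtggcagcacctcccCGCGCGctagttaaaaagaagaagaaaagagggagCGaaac
Sufu: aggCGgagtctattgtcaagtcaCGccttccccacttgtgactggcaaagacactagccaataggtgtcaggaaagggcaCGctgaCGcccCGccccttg

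Over the whole windows, Ptch1 held 47 CpGs, Hhip 30 and Sufu 12, against a median of 7 over all 32851 windows. Every one of the 7 lay above that median, with a GC content between 56.3% and 76.3% against a median of 52.7%. The Gli binding consensus GACCACCCA, searched on both strands, was in 0 of the 7 windows and in 0.253% of all windows. The Ptch1 and Gli3 windows are each placed on a RefSeq start that lies inside the annotated span of the gene. A count of 0 says only that these letters are not in these windows.

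Ptch1 (ENSMUSG00000021466, chr13:63508328-63573598) had the highest level per kilobase of exon of the 9 genes, 47.3 ± 2.08 normalized counts per kb (SD, n = 9), above 73.2% of the genes tested. Smo (ENSMUSG00000001761, chr6:29735503-29761365) followed at 18.9 ± 2.50 per kb. Next came Gli3 at 14.9 ± 2.01, Sufu at 14.7 ± 1.53 and Gas1 at 14.0 ± 3.98 per kb, which as neighbours did not differ beyond their spread at these lengths. Shh stood at 7.06 ± 1.33 per kb, Gli2 at 3.99 ± 0.786 and Gli1 at 3.68 ± 1.34, and Hhip was lowest at 2.03 ± 0.813, above 4.45% of the genes tested. The receptor that the signal induces was thus at one end of the order, and another of its induced genes at the other.

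**Figure D1:**
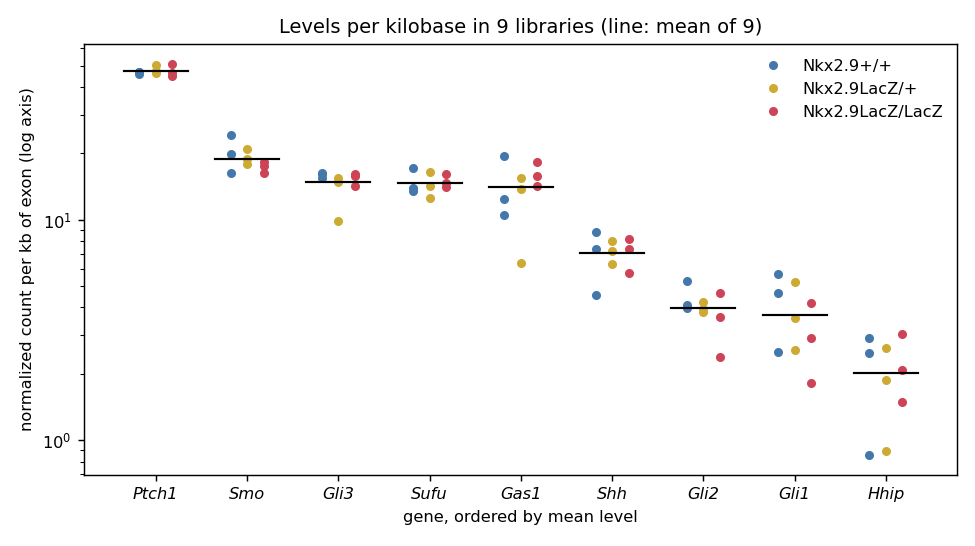
Normalized count per kilobase of exon (log axis) for each of the 9 Hedgehog genes in 9 libraries, coloured by Nkx2.9 genotype label, with a line at the mean of the 9. Ptch1 stands above all other genes at a mean of 47.3 per kb, and the points of the genotypes overlap for each gene but Gli3, whose heterozygous points lie below its wild-type points.

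Neighbours in this order were compared within libraries, with an exact sign-flip test of the log2 ratio over the 9 libraries (two-sided, smallest p 0.00391) and Benjamini-Hochberg adjustment over 8 pairs. The order came from the levels in these same libraries, so the pairs were not set beforehand. The p-values therefore describe how steady each ratio was and are no independent test of the order. Ptch1 was 2.52 times Smo per kb and higher in 9 of 9 libraries (exact p = 0.00391, adjusted 0.0104). Smo was 1.27 times Gli3, and Gas1 1.93 times Shh, each in 9 of 9 libraries with those same p-values. Shh was 1.77 times Gli2, and Gli1 1.87 times Hhip, each in 8 of 9 libraries (exact p = 0.00781, adjusted 0.0125). The neighbours that did not pass were Gli3 and Sufu (ratio 1.01, exact p = 0.961), Sufu and Gas1 (1.09, exact p = 0.496) and Gli2 and Gli1 (1.13, exact p = 0.324). With the longest transcript as the length, Gli3 changed places with Sufu and Gli2 with Gli1, so 5 of 9 genes kept their place. At those lengths Gli3 was 0.694 times Sufu and lower in 9 of 9 libraries, and Sufu was 1.86 times Gas1 and higher in 9 of 9 (each exact p = 0.00391, adjusted 0.00521), so the likeness of these 3 levels rests on the length chosen. Gli2 and Gli1 did not pass with either length (ratio 0.951, exact p = 0.664 with the longest transcript).

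The question put to each gene was whether its level differed between the genotypes. In no comparison did any of the 9 genes pass limma with Benjamini-Hochberg adjustment over the 16993 genes tested, nor an unadjusted p under 0.05. Over all genes, 0 passed the adjusted threshold in each comparison with limma and with edgeR, while DESeq2 called 1 in Nkx2.9LacZ/+ against Nkx2.9+/+ and 0 in the others. Without columns 4 and 7, limma called 6 genes at the adjusted threshold for Nkx2.9LacZ/LacZ against Nkx2.9+/+, of which 4 were the Y-linked genes summed above and none was a Hedgehog gene. At an unadjusted p under 0.05 limma called 2.60% of genes (441) for Nkx2.9LacZ/LacZ against Nkx2.9+/+, of which 1.38% were higher and 1.22% lower, 2.78% (473) for Nkx2.9LacZ/+ against Nkx2.9+/+ and 2.64% (449) for Nkx2.9LacZ/LacZ against Nkx2.9LacZ/+. The Hedgehog count of 0 of 9 lies near those shares. The median log2 fold change of the 9 genes for homozygous against wild type was 0.011, beside 0.011 over all genes tested. For heterozygous against wild type it was -0.14 beside -0.0069, and for homozygous against heterozygous -0.017 beside 0.017.

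Shh (ENSMUSG00000002633, chr5:28456815-28467256), the ligand, measured 12.9, 21.1 and 25.03 normalized counts in Nkx2.9+/+, 22.8, 20.49 and 17.9 in Nkx2.9LacZ/+ and 23.3, 21.04 and 16.3 in Nkx2.9LacZ/LacZ. The wild-type libraries held both the lowest and the highest value, and the genotypes overlapped. The lowest rests on 5 reads in the shallow column 7 (95% Poisson interval 1.62 to 11.7 reads), and Shh had 202 reads over the 9 libraries. The homozygous level was 1.05 times the wild-type level, with a 95% interval from 0.635 to 1.74 (log2 fold change 0.072, SE 0.34, limma unadjusted p = 0.836, adjusted 1.00). Its variance across libraries was 0.560 times what counting error alone gives, so no spread beyond sampling of reads was detectable for the ligand. The sign of this small difference depended on column 7, without which the log2 fold change was -0.19. Antisense 9530036O11Rik and Gm26894 overlap Shh and had 21 and 11 reads in all, and without a stated strand setting their reads cannot be told from those of Shh.

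Ptch1, the receptor and an induced target, measured 667, 649 and 665 normalized counts in Nkx2.9+/+, 714, 655 and 672 in Nkx2.9LacZ/+ and 636, 725 and 657 in Nkx2.9LacZ/LacZ. The homozygous libraries held the lowest and the highest value, and the highest was 1.14 times the lowest. This gene had 6519 reads, and its coefficient of variation over the 9 libraries was 4.40%. The homozygous level was 1.02 times the wild-type level with a 95% interval from 0.866 to 1.19 (log2 fold change 0.024, SE 0.11, limma unadjusted p = 0.827). That was the narrowest interval of the 9 genes.

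Smo, the transducer that Ptch1 restrains, measured 111, 136 and 91.3 normalized counts in Nkx2.9+/+, 106, 118 and 101 in Nkx2.9LacZ/+ and 98.6, 102 and 91.9 in Nkx2.9LacZ/LacZ. The highest and the lowest values were both wild type, so the genotypes overlapped. Homozygous over wild type was 0.877, with an interval from 0.674 to 1.14 (log2 fold change -0.19, SE 0.18, limma unadjusted p = 0.306). The ratio of Ptch1 to Smo per kb ran from 1.89 to 2.89 with a median of 2.63, and its genotype means were 2.39 ± 0.4998 in wild type, 2.50 ± 0.260 in heterozygous and 2.73 ± 0.153 in homozygous libraries (exact permutation p = 0.4 for homozygous against wild type, smallest possible 0.1).

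Gas1 (ENSMUSG00000052957, chr13:60174405-60177365), a membrane-anchored co-receptor that helps Shh bind Ptch1, measured 31.0, 57.5 and 36.8 normalized counts in Nkx2.9+/+, 45.6, 41.0 and 18.8 in Nkx2.9LacZ/+ and 46.7, 42.1 and 54.1 in Nkx2.9LacZ/LacZ. Column 6, which is heterozygous, stood lowest with 23 reads, and column 8, wild type, stood highest with 82. The variance of Gas1 over the 9 libraries was 3.82 times its counting error, the highest of the 9 genes, and the genotypes overlapped. Homozygous over wild type was 1.17, with an interval from 0.720 to 1.90 (log2 fold change 0.22, SE 0.33, limma unadjusted p = 0.504). Homozygous over heterozygous was 1.43, from 0.881 to 2.32 (log2 fold change 0.52, SE 0.33, limma unadjusted p = 0.137). Under 3 alternatives this comparison gave a call, while without column 6 the log2 fold change was 0.13. In limma the log2 fold change was 0.90 with log2 Xist as a covariate (unadjusted p = 0.0477). It was 0.75 without the shallow column 4 (limma unadjusted p = 0.0424) and also without columns 4 and 7 (limma unadjusted p = 0.0215). Over all 22 alternatives the smallest adjusted p was 0.855. Heterozygous against wild type gave a log2 fold change of -0.29 (limma unadjusted p = 0.389), and 0.096 without column 6. Without columns 4 and 7 it was -0.71 (limma unadjusted p = 0.0439).

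Hhip (ENSMUSG00000064325, chr8:79965851-80058006), a membrane protein that binds and sequesters Hedgehog ligands, measured 7.76, 22.5 and 26.5 normalized counts in Nkx2.9+/+, 8.15, 17.1 and 23.7 in Nkx2.9LacZ/+ and 13.5, 27.4 and 18.9 in Nkx2.9LacZ/LacZ. Its lowest values were those of the 2 shallow libraries, with 3 reads in column 7 and 5 in column 4. Homozygous over wild type was 1.13, with the widest interval of the 9 genes, from 0.552 to 2.33 (log2 fold change 0.18, SE 0.49, limma unadjusted p = 0.716). Without column 7 the log2 fold change was -0.33. No difference was detectable for Hhip at this depth.

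Sufu (ENSMUSG00000025231, chr19:46396896-46488804), which holds Gli proteins in the cytoplasm, measured 132, 104 and 107 normalized counts in Nkx2.9+/+, 127, 96.5 and 109 in Nkx2.9LacZ/+ and 124, 108 and 113 in Nkx2.9LacZ/LacZ. The genotypes overlapped, and the variance was 1.03 times the counting error. Homozygous over wild type was 1.01, with an interval from 0.782 to 1.30 (log2 fold change 0.011, SE 0.17, limma unadjusted p = 0.948).

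**Figure D2:**
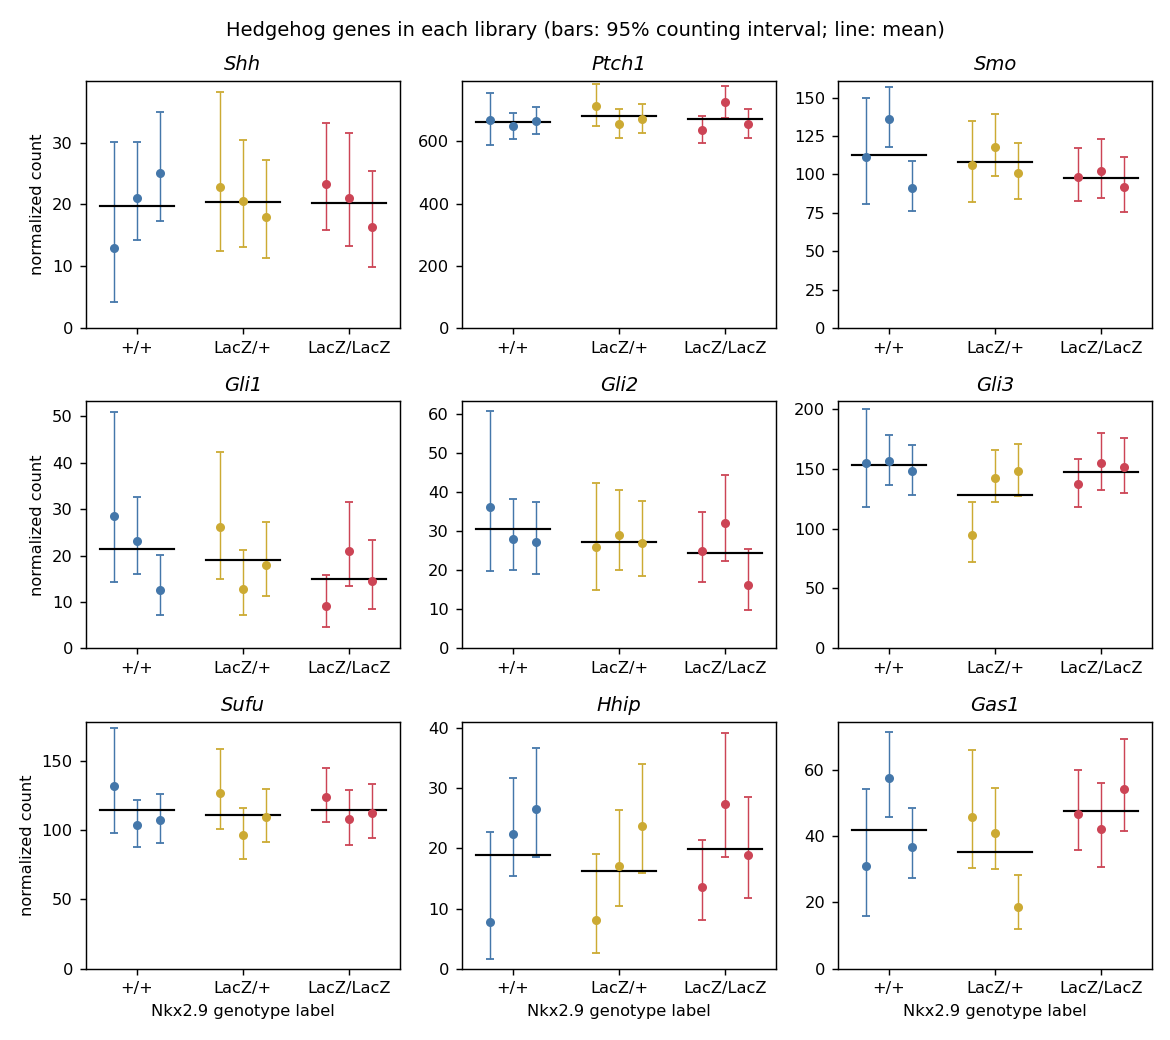
Normalized count (y axis, from 0) of each Hedgehog gene in each library, by Nkx2.9 genotype label, with 95% Poisson intervals for the reads as bars and the mean of 3 libraries as a line. Ptch1 lies between 636 and 725 in every library, while Hhip runs from 7.76 to 27.4 with intervals that mostly overlap.

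Gli1 (ENSMUSG00000025407, chr10:127329882-127341974), an activator that is itself an induced target, measured 28.4, 23.2 and 12.5 normalized counts in Nkx2.9+/+, 26.1, 12.8 and 17.9 in Nkx2.9LacZ/+ and 9.03, 21.04 and 14.6 in Nkx2.9LacZ/LacZ. Its lowest value was homozygous and its highest wild type, but the genotypes overlapped, and the highest rests on 11 reads in the shallow column 7. The homozygous level was 0.711 times the wild-type level, with an interval from 0.381 to 1.32 (log2 fold change -0.49, SE 0.42, limma unadjusted p = 0.261, adjusted 1.00). The log2 fold change was -0.20 without column 1, -0.26 without column 7, -0.77 without column 2 and -0.82 without column 9, so its size rested on single libraries. Gli1 had 166 reads in all. Arhgap9 overlaps it and had 10.

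Gli2 (ENSMUSG00000048402, chr1:118834132-119053619), the main primary activator of the pathway, measured 36.2, 28.1 and 27.2 normalized counts in Nkx2.9+/+, 26.1, 29.0 and 26.9 in Nkx2.9LacZ/+ and 24.8, 32.0 and 16.3 in Nkx2.9LacZ/LacZ. Column 3, homozygous, was the lowest and column 7, wild type, the highest. Homozygous over wild type was 0.785, with an interval from 0.502 to 1.23 (log2 fold change -0.35, SE 0.30, limma unadjusted p = 0.267). Without column 3 the log2 fold change was -0.098, without column 7 it was -0.22, and without column 2 it was -0.56. The variance of Gli2 was 0.962 times its counting error.

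Gli3 (ENSMUSG00000021318, chr13:15463235-15730026), the main repressor, measured 155, 156 and 148.0 normalized counts in Nkx2.9+/+, 94.5, 143 and 147.7 in Nkx2.9LacZ/+ and 137, 155 and 151 in Nkx2.9LacZ/LacZ. Column 4, shallow and heterozygous, was low, and the other 8 libraries lay between 137 and 156. Homozygous over wild type was 0.962, with an interval from 0.742 to 1.25 (log2 fold change -0.055, SE 0.18, limma unadjusted p = 0.759). All 3 heterozygous values lay below all 3 wild-type values, by 147.67 against 147.95 at the nearest (ratio 0.823, interval 0.634 to 1.07, log2 fold change -0.28, SE 0.18, limma unadjusted p = 0.131, exact permutation p = 0.1, the smallest possible). Gli3 was the 1 gene of 9 whose values did not overlap in that comparison, where 6.91% of all genes did not. For homozygous against wild type the count was 0 of 9 beside 9.52%, and for homozygous against heterozygous 0 of 9 beside 8.71%. Without column 4 the heterozygous log2 fold change of Gli3 was -0.077.

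Within each library, Gli3 made up most of the summed Gli level per kb, from 52.2% to 74.8% with a median of 67.2%. Gli2 held 11.3% to 20.1% and Gli1 9.17% to 27.7%. The lowest Gli3 share and the highest Gli1 share were both in column 4. Gli3 averaged 65.1% ± 5.43 in wild-type, 62.7% ± 9.09 in heterozygous and 70.6% ± 5.42 in homozygous libraries (SD, n = 3; exact permutation p = 0.3 for homozygous against wild type and 0.8 for heterozygous against wild type). These shares are of transcripts and say nothing of how much protein was processed into repressor.

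**Figure D3:**
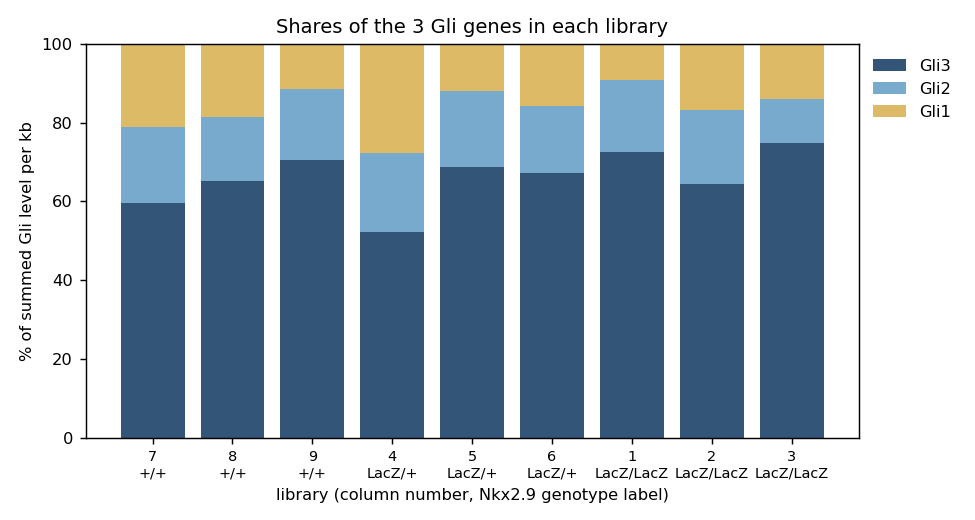
Percent of the summed level per kilobase held by Gli1, Gli2 and Gli3 in each of 9 libraries, by column number and Nkx2.9 genotype label. Gli3 makes up 52.2% to 74.8% of every bar.

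The genes whose library pattern was closest to that of Shh and Gli1 were found from the root mean square difference of centred log2 values over the 9 libraries, among genes with a mean of at least 20. For Shh they were Dbndd1 (0.090), Arxes1 (0.093) and Tbccd1 (0.099), against a median of 0.34 over 12489 genes. For Gli1 they were Adamtsl1 (0.25), Slc7a7 (0.25) and Atf5 (0.26), against a median of 0.54. With the small read counts of Shh and Gli1, this is a description of 9 libraries only.

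The wider pathway was read from a list of 48 other genes, of which 46 passed the minimum count. Below it were the other Hedgehog ligands, Dhh and Ihh, each with at most 6 reads in a library. For homozygous against wild type, 1 of the 46 was higher and 1 lower at an unadjusted p under 0.05, beside 1.38% and 1.22% of all genes. In both other comparisons 0 of the 46 passed.

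Evc, a ciliary protein that carries the signal from active Smo, was the higher one. It measured 10.3, 28.8 and 25.03 normalized counts in Nkx2.9+/+, 19.6, 30.7 and 33.4 in Nkx2.9LacZ/+ and 31.6, 55.8 and 35.2 in Nkx2.9LacZ/LacZ. Every homozygous library lay above every wild-type library, with a log2 fold change of 0.98 (SE 0.38, limma unadjusted p = 0.0209, adjusted 1.00). Values did not overlap in that comparison for 9.52% of all genes. The wild-type value of 10.3 rests on 4 reads in column 7. Without column 7 the difference was 0.55 (limma unadjusted p = 0.121). Without column 2 it was 0.74 (limma unadjusted p = 0.110).

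Pax7, a dorsal gene that Hedgehog signals repress, was the lower one. It measured 318, 254 and 221 normalized counts in Nkx2.9+/+, 299.9, 176 and 198 in Nkx2.9LacZ/+ and 156, 229 and 135 in Nkx2.9LacZ/LacZ. Column 2, homozygous, lay above the lowest wild-type library, so the genotypes overlapped. The log2 fold change was -0.63 (SE 0.22, limma unadjusted p = 0.0119, adjusted 1.00). Pax7 belongs to the genes the study selected on these same libraries, so its call is not independent of that choice. Its direction is in doubt with that of the column labels. The log2 fold change was -0.47 without column 3 (limma unadjusted p = 0.0733) and -0.49 without column 7 (limma unadjusted p = 0.0586). Without columns 4 and 7 it was also -0.49 and passed (limma unadjusted p = 0.00827).

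The partners of Ptch1 gave no call. The ligand-binding co-receptors Boc and Cdon had log2 fold changes of -0.21 (interval -0.68 to 0.27) and 0.19 (-0.13 to 0.51) for homozygous against wild type. Cdon lay between 132 and 138 normalized counts in homozygous and between 111 and 131 in wild-type libraries, which did not overlap (limma unadjusted p = 0.228). Of all genes, 9.52% did not overlap in that comparison. Per kb, Boc stood at 20.7 and Cdon at 16.9 normalized counts over the 9 libraries, beside 18.9 for Smo and 14.0 for Gas1.

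Genes that Hedgehog signals induce in ventral progenitors also gave no call, 0 of 9 in each direction, with a median log2 fold change of 0.029 for homozygous against wild type. Foxa2, a floor plate transcription factor, had 0.17 (interval -0.29 to 0.63), and Nkx2-2, a ventral homeobox gene, -0.057 (-0.53 to 0.41). Genes for ligand release, partners of the receptor and transduction had medians of -0.080 over 5 genes, -0.050 over 5 and -0.015 over 23. The 4 repressed targets were split, from -0.63 to 0.15 with 2 of the 4 above 0. Their median of -0.27 therefore does not describe a shift of all 4, and Pax7 was the 1 called.

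**Figure D4:**
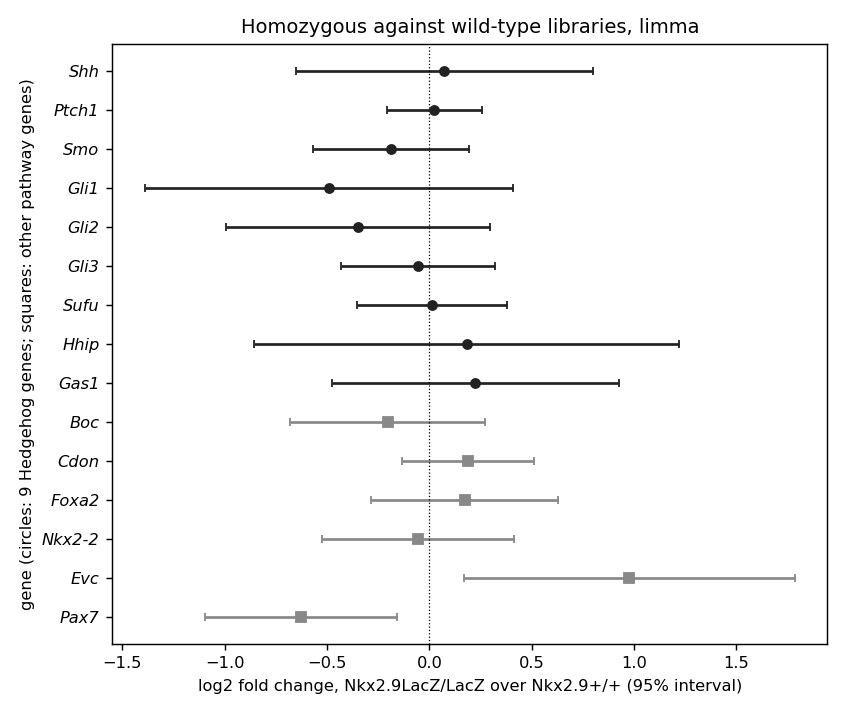
Log2 fold change of Nkx2.9LacZ/LacZ over Nkx2.9+/+ libraries with 95% intervals from limma, for the 9 Hedgehog genes (circles) and 6 other pathway genes (squares). The intervals of the 9 cover 0, and those of Evc and Pax7 do not.

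Markers of tissue next to the midbrain moved with the same comparison. Of 5 hindbrain markers tested, 2 were lower in the libraries labelled homozygous (limma unadjusted p under 0.05), Tph2 (log2 fold change -1.75) and Slc6a4 (-1.07), with a median log2 fold change of -0.61 and summed levels of 64.0 to 82.4 normalized counts in homozygous and 77.2 to 142 in wild-type libraries, and Atoh1 was at 0. Of 3 choroid plexus markers tested, 1 was lower, and the 4 markers listed, of which 1 was below the minimum count, summed to 15.8 to 27.5 normalized counts in homozygous and 26.7 to 75.0 in wild-type libraries. Among the 6 midbrain markers, 2 were lower, En1 (log2 fold change -0.60) and Pitx3 (-0.71). Tph2 and En1 are also among the genes the study selected on these libraries, so their calls are not independent of that choice, and these directions too are in doubt with the column labels. Leaving out single libraries ended the calls of Slc6a4 (column 3, 7 or 9), En1 (column 1, 7 or 9) and Pitx3 (column 1, 2, 8 or 9) but not that of Tph2. In those fits the log2 fold changes stayed below 0, from -1.35 to -0.60 for Slc6a4, -0.73 to -0.47 for En1 and -0.95 to -0.54 for Pitx3. Radial glia, neuron, rostral, blood, endothelium and microglia markers gave 0 calls in that comparison. Their part in the levels of the Hedgehog genes was not tested.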

How the data were processed

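RNA of E14.5 midbrains was sequenced in 9 libraries, 3 per Nkx2.9 genotype. Per the study's methods the authors depleted ribosomal RNA, used HISAT2 for alignment to mm10 and featureCounts for counting. Versions, annotation release and strand setting are not given in the sources used here. The labels describe the RNA isolation and library differently, and the series title names cortex where the sample labels name midbrain. The signal deposited by the authors is a normalized count per gene, reads over the DESeq2 size factor of that library. Another 3 deposited tables hold the authors' DESeq2 fold changes, errors, statistics and p-values and were not used. Columns carry a genotype and no replicate number.

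Whole reads were recovered for 100% of 210686 values above 0 (tolerance 0.1 read). Of 51912 entries, 51719 matched GENCODE M21 on GRCm38, which gave positions and exon lengths, and 0 named no gene. The test was limma 3.58.1 in R 4.3.3 with a mean-variance trend on log2(normalized count + 1), over genes with a mean of at least 5, the 9 libraries in one fit, two-sided, with Benjamini-Hochberg adjustment; a call is an unadjusted p under 0.05. Fold changes are on that scale, which understates changes of low genes. P-values measure the spread between these pools. Poisson intervals are exact at 95% and cover counting error only. The code was tested on simulated data.

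The 9 genes and the lists were chosen with earlier results of these data known. Of the other pathway genes, those with an unadjusted p under 0.05 in any comparison are named. So were 5 others whatever their values, of which Boc, Cdon, Foxa2 and Nkx2-2 are given and 1 is not reported here. Other genes appear as overlapping genes, markers or for likeness. Alternatives were pseudocounts of 0.5 and 5, no minimum or a minimum of 20, only the libraries compared, upper-quartile and quantile scaling, no trend, edgeR 4.0.16, DESeq2 1.42.0, log2 Xist or log2 total reads as a covariate, and leaving out each library. Leaving out columns 4 and 7, the libraries under 3000000 reads, was chosen after seeing the data. Figures were drawn with matplotlib 3.10.9.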

Additional observations from a re-analysis of the deposited data

How the results depend on the processing

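No Hedgehog gene was called for homozygous against wild type under any alternative. For heterozygous against wild type, 1 was called without columns 4 and 7 (Gas1). For homozygous against heterozygous, 1 (Gas1) was called with the Xist covariate and 1 without columns 4 and 7, and 0 to 1 when single libraries were left out. Of 22 fold changes of single genes recomputed, 16 kept their direction under all alternatives that could be run; a minimum of 20 left out Gli1 and Hhip. The homozygous against wild-type log2 fold change of Shh was -0.041 with edgeR, -0.041 with DESeq2, -0.032 with the depth covariate and -0.19 without columns 4 and 7, and -0.19 to 0.26 when single libraries were left out. That of Hhip was -0.079, -0.047, -0.14 and -0.33 under the same settings and -0.33 to 0.49. Sufu gave -0.036 with the Xist covariate and -0.054 to 0.12 with single libraries left out, Ptch1 -0.031 to 0.064, Nkx2-2 -0.27 to 0.10, and Gas1 for heterozygous against wild type -0.52 to 0.096. With single libraries left out, the homozygous against wild-type values of Smo (-0.33 to -0.046), Gli1 (-0.82 to -0.20), Gli2 (-0.56 to -0.098) and Gas1 (0.040 to 0.47) kept their sign and none was called. So did those of Boc (-0.36 to -0.011), Cdon (0.14 to 0.26) and Foxa2 (0.040 to 0.30), again with no call, though their sizes rested on single libraries. The genes called over all those tested, in the order homozygous against wild type, heterozygous against wild type and homozygous against heterozygous, numbered 1135, 1137 and 1132 without a minimum count, 263, 242 and 288 with a minimum of 20, and 703, 852 and 971 without columns 4 and 7. When single libraries were left out they ranged from 283 to 827, 375 to 933 and 293 to 740. For heterozygous against wild type they numbered 280 with only the 6 libraries compared, 264 with DESeq2, 298 with the Xist covariate and 790 with the depth covariate. The cause of these changes was not tested. With the longest transcript as the length, 5 genes kept their place in the order. No paired analysis was possible because the columns carry no replicate number. Depth limits Shh, Gli1, Gli2 and Hhip, whose libraries held 3 to 40 reads.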
